A study of Mus musculus with 4 samples.

Results

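The epithelial cells of the mesonephros were the 4533 of 52745 profiled cells to which the deposited annotation gives that name, 1 of 13 cell types it names. They were taken from all 4 samples by this name alone, and the UMIs (unique molecular identifiers, which count captured transcripts) of each gene were summed over the cells of a sample. The study profiled single cells of the developing mouse gonad with its attached mesonephros to compare XY embryos that lack the miR-17~92 cluster of microRNAs with controls around the time of sex determination. The XY KO samples, at embryonic days E11.5 and E11.75, came from G4 embryonic stem cells in which both copies of the cluster were deleted with CRISPR/Cas9, and the XY control at E11.5 came from the unedited parental line. Embryos of these 3 samples were made by tetraploid aggregation, so that each litter is isogenic. The XX control at E11.5 came from natural crosses of C57BL/6J males with 129 females, and the labels give the strain of every sample as C57BL/6 x 129S4/SvJae. Each sample was a pool of the gonads and mesonephroi of a few embryos, and there was 1 sample per group. No difference between groups could therefore be tested, and the differences between genotypes, cell lines, stages, dissections and libraries cannot be told apart. The intervals below are exact 95% intervals for the counting of molecules or cells, and cover neither the spread between embryos nor that between libraries.

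The mesonephros is the transient embryonic kidney beside which the gonad forms. A coelomic epithelium, the future mesothelium, covers both organs. Over the gonad it thickens, expresses transcription factors such as Lhx9, Nr5a1 and Gata4, and gives rise to somatic gonadal cells, whereas over the mesonephros it remains a lining, and a part of it folds inwards to start the Müllerian duct. Cells of such linings carry simple-epithelial keratins (Krt8, Krt18), the uroplakin Upk3b and the zinc-finger factor Wt1. MicroRNAs of the miR-17~92 cluster lower the output of messenger RNAs that hold a match to their seed, bases 2 to 8 of the microRNA, most often in the 3′ untranslated region.

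The sequences that were removed in the KO cells are shown because the target sites described further on are complementary to them. The mature microRNAs are from RefSeq (GRCm38.p6), lie on the plus strand of chromosome 14 within the host transcript Mir17hg, and have their seeds in capitals. miR-17-5p is at 115043684 to 115043706, miR-20a-5p at 115044183 to 115044205, miR-19a-3p at 115044048 to 115044070, miR-19b-3p at 115044358 to 115044380 and miR-92a-3p at 115044476 to 115044496.
mmu-miR-17-5p: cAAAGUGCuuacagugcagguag
mmu-miR-20a-5p: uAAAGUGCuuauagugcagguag
mmu-miR-19a-3p: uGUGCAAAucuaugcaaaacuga
mmu-miR-19b-3p: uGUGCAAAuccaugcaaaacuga
mmu-miR-92a-3p: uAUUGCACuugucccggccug
miR-17-5p and miR-20a-5p share 1 seed, both forms of miR-19 share another, and miR-92a-3p has the third. miR-18a also belongs to the cluster, and its seed was not searched here.

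Values over the 4 samples are given in the order of the XY control, the E11.5 KO, the E11.75 KO and the XX control. The mesonephric epithelium held 1571, 1863, 798 and 301 cells, with 6145357, 9565996, 3165686 and 4654365 UMIs. The median cell held 3578, 4683, 3626 and 13737 UMIs, so the XX control had the fewest cells but by far the deepest ones. Only the XX control held cells of 30000 UMIs or more, 15 of them. The deepest cells of the XY samples held 13438, 19246 and 13523 UMIs. The authors set that upper limit on the XY samples and filtered the XX control otherwise. The E11.75 KO sample, the one with a single sequenced library, stood apart in mitochondrial UMIs (5.58%, against 3.02% to 4.39% elsewhere) and in Gm42418, a locus that overlaps ribosomal RNA, at 13629 CPM (UMIs scaled to a sum of 1000000 per sample and cell type) against 4456 to 6114 CPM. Between the 7 libraries 1 to 40 cell barcodes were shared, and within the mesonephric epithelium 0 to 2. Where a sample had 2 libraries, these differed little within this cell type: 1 of 7929 genes differed at least 2-fold in the XY control, 1 of 8915 in the E11.5 KO and 8 of 6591 in the XX control.

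Mesonephric epithelial cells made up 6.68% of all cells in the XY control (6.36% to 7.00%), 10.9% in the E11.5 KO (10.5% to 11.4%), 9.40% in the E11.75 KO (8.78% to 10.0%) and 8.20% in the XX control (7.34% to 9.14%). The share was thus lowest in the XY control and highest in the E11.5 KO. The intervals cover only the counting of cells within each pooled sample, so whether they overlap cannot tell groups apart. Of the cells of the 3 mesonephric types alone (epithelium, mesenchyme and tubules) the epithelium was 10.9%, 16.0%, 15.4% and 12.7%. Of the epithelial cells of gonad and mesonephros together it was 41.5%, 50.8%, 46.8% and 56.7%, and on this scale the XX control was highest. The shares depend on how much mesonephros was left at dissection and on filters that differed between samples, and their part in these values was not tested.

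The name of the cells was checked against their 4 markers, although the cells were clustered on the same genes and the check is a description. Upk3b, an apical plaque protein of urothelium and mesothelium, was at 206, 193, 341 and 170 CPM, and in the mesenchyme of the mesonephros at 6.76, 8.49, 11 and 6.20 CPM. Krt18, a keratin of simple epithelia, was at 217, 206, 214 and 298 CPM, against 40.4, 44.8, 32.9 and 44.7 CPM in the mesenchyme. All 4 markers were above the mesenchyme in every sample, and Upk3b, Krt18 and Krt8 by at least 2-fold. Wt1, which controls the epithelial and mesenchymal state of cells in the urogenital ridge, was at 385, 304, 578 and 300 CPM, above the mesenchyme (299, 221, 374 and 242 CPM) by less than 2-fold. Krt8, the partner keratin of Krt18, was at 79.7, 68.1, 81.2 and 69.2 CPM against 17.8, 16.3, 15.5 and 14.3 CPM. The tubules, an epithelium too, were also high in Krt18 (288, 167, 283 and 285 CPM) and higher in Krt8 (234, 100, 269 and 187 CPM), but low in Upk3b (at most 11.2 CPM).

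**Figure D1:**
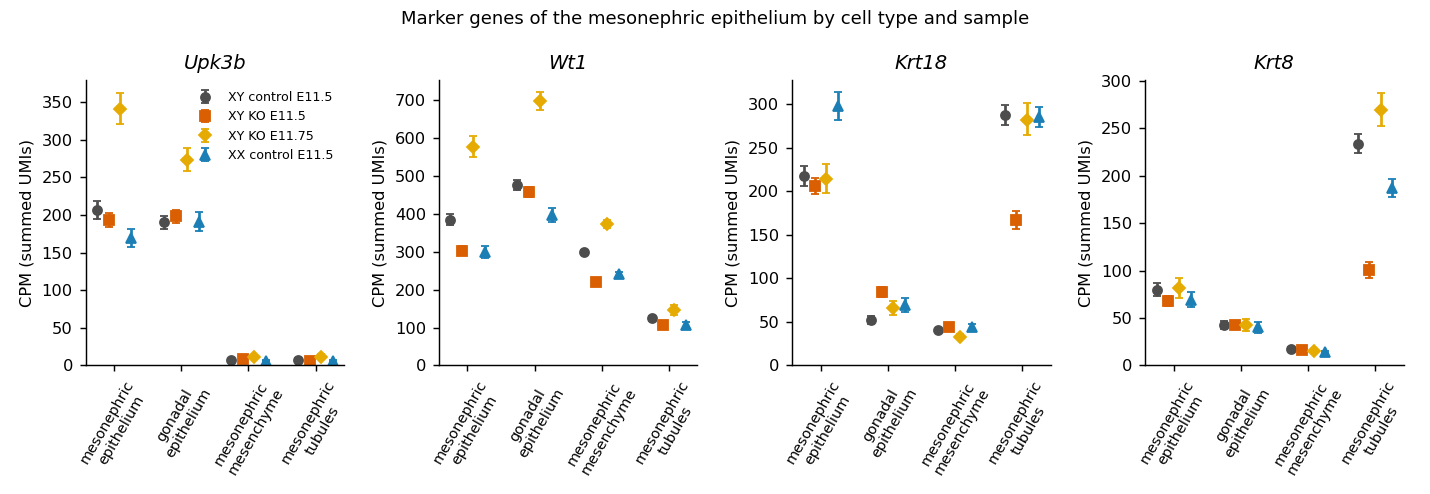
Levels of Upk3b, Wt1, Krt18 and Krt8 (y axis, CPM of summed UMIs) in the mesonephric epithelium, the gonadal epithelium, and the mesenchyme and tubules of the mesonephros, 1 point per sample with its exact 95% counting interval. Upk3b was alike in both linings and low in mesenchyme and tubules, whereas Krt18 and Krt8 were above the gonadal lining and also high in the tubules.

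To set the samples side by side at equal depth, each cell was thinned to 2000 UMIs, which left out 90, 34, 45 and 0 cells. Upk3b was then seen in 30.1%, 26.7%, 45.3% and 27.9% of mesonephric epithelial cells (44.4%, 48.6%, 63.0% and 67.1% before thinning). In endothelial cells, whose median depth before thinning was 4796, 8374, 5343 and 17632 UMIs and which should lack it, the share was 0.979%, 1.06%, 1.30% and 1.08%. The E11.75 KO had the highest share and the other 3 samples were close to each other. Wt1 was seen in 51.1%, 45.1%, 68.9% and 42.2% of cells, against 1.77% to 9.93% in endothelial cells. Krt18 was seen in 32.1%, 29.5%, 31.7% and 40.5% and Krt8 in 13.6%, 12.4%, 15.3% and 13.3% of cells, both above their endothelial shares of at most 5.38% and 2.60%.

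Markers of tubule, endothelial, immune, germ, neural crest and steroidogenic cells were low. The summed level of 10 nephric tubule genes was 45.5 to 64.1 CPM, against 1140 to 1838 CPM in the tubule cells. The 5 endothelial markers summed to 24.3 to 77.7 CPM, the 5 immune markers to 3.16 to 13.8 CPM, the 5 germ cell markers to 8.47 to 25.9 CPM, the 4 neural crest markers to 7.63 to 19.9 CPM and the 5 steroidogenic markers to 6.00 to 10.4 CPM. Transcripts of red blood cells were not low: the 8 erythroid genes summed to 3311, 1215, 1965 and 979 CPM, with the XY control highest. The authors removed cells above a limit on beta globin that differed between the XY samples, and the part of these limits in the levels was not tested. Nor were mesenchymal transcripts low: the 14 mesenchymal genes summed to 1607, 2200, 2455 and 1139 CPM, beside 4053, 4503, 6708 and 3004 CPM in the mesenchyme itself. In the E11.5 KO this sum was above that of the 17 mesothelial genes, 1982 CPM.

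A broader list of 17 mesothelial genes was set beside the mesenchyme and beside the lining of the gonad. Compared with the mesenchyme of the mesonephros, 13 of the 16 mesothelial genes with enough UMIs were at least 2-fold higher in all 4 samples and 1 was lower, with a median log2 ratio of 3.19. Of all 14171 genes compared, 2.59% were at least 2-fold higher and 3.33% lower in all 4 samples, with a median of −0.06. Compared with the gonadal epithelium, Krt18 and Upk1b of 16 were at least 2-fold higher in all 4 samples and none was lower (median 0.23). Of all genes in that comparison 2.87% were higher and 2.81% lower, with a median of 0.01. Upk1b, another uroplakin, was at 68.2, 59.9, 113 and 63.8 CPM, against 27.6, 22.3, 29.0 and 22.9 CPM in the gonadal epithelium. Krt19, a further simple-epithelial keratin, was at 112, 123, 210 and 131 CPM against 47.7, 71.5, 48.0 and 38.0 CPM. Podxl, a sialomucin of apical surfaces, was at 432, 325, 732 and 263 CPM, within 0.42 on the log2 scale of the gonadal level in each sample.

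The question of where this lining differs from that of the gonad was taken up gene by gene within each sample, so that both cell types share the library. Of 12269 genes with at least 100 UMIs over both cell types, 352 (2.87%) were at least 2-fold higher in the mesonephric epithelium in all 4 samples and 345 (2.81%) at least 2-fold lower. Since the 2 cell types were separated by these same genes, the differences describe the classes and are no test.

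The 12 genes that the rule named as lowest against the gonad included the gonadal regulators Lhx9 and Nr5a1. Lhx9, a LIM-homeobox factor required for gonad formation, was at 15.5, 10.9, 42.3 and 10.5 CPM in the mesonephric and at 615, 557, 843 and 670 CPM in the gonadal epithelium, a log2 ratio between −5.98 and −4.31. Nr5a1, the nuclear receptor SF-1, was at 3.25, 2.30, 6.63 and 0.43 CPM against 54.5, 47.6, 90.5 and 46.0 CPM. Gata4, a factor upstream of both that is not among the 12, was at 9.28, 9.30, 14.2 and 2.79 CPM against 137, 137, 159 and 120 CPM. For all 3 genes every mesonephric value lay far below every gonadal one, and the E11.75 KO was the highest mesonephric sample. Of 14 genes of the gonadal ridge list, 6 were at least 2-fold lower in all 4 samples (Gata4, Nr5a1, Lhx9, Nr0b1, Zfpm2 and Gadd45g) and none was higher. Emx2, a homeobox gene of the whole urogenital ridge, was at 212, 171, 217 and 220 CPM against 251, 286, 406 and 319 CPM, lower in all 4 samples but by less than 2-fold, with log2 ratios of −0.24, −0.74, −0.90 and −0.53. Amhr2, the receptor for anti-Müllerian hormone, was at 27.7, 16.0, 55.9 and 20.6 CPM against 213, 195, 198 and 190 CPM, and Tcf21, a bHLH factor of visceral mesoderm, at 54.8, 56.3, 70.8 and 40.4 CPM against 497, 337, 270 and 371 CPM. The other genes named by the rule as lowest were Cbln1, Acvr1c, Gbp2b, Aqp5, Gbp2, Barx2, Dclk1, Thsd7b, Gpr37 and Inhbb.

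Highest against the gonad were a few transcription factors, secreted proteins and surface proteins. Gata2, a zinc-finger factor of the urogenital tract and of blood progenitors, was at 275, 197, 428 and 237 CPM against 11.6, 11.72, 24.4 and 8.62 CPM in the gonadal epithelium, a log2 ratio of 4.06 to 4.76. Thy1, a glycolipid-anchored surface protein, was at 42.0, 31.5, 115 and 27.1 CPM against 2.23, 1.40, 4.57 and 1.26 CPM. Osr2, an odd-skipped factor of the intermediate mesoderm, was at 90.8, 56.6, 92.6 and 83.6 CPM against 5.75, 4.51, 5.03 and 4.2 CPM. For each of these genes all 4 mesonephric values were above all 4 gonadal ones, and the rule took only genes higher in all 4 samples. Ndnf, which codes for a secreted protein, was at 101, 52.8, 70.8 and 70.0 CPM against at most 4.34 CPM, and Smoc2, which binds calcium in the matrix, at 192, 232, 376 and 133 CPM against at most 17.8 CPM. Pitx1, a homeobox factor of hindlimb and posterior mesoderm, was at 19.4, 8.68, 8.84 and 50.3 CPM against at most 0.742 CPM. Mybpc1, Lrrtm1, Sostdc1, Lsamp, Chd5 and Hhip completed the 12 genes highest by the rule.

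**Figure D2:**
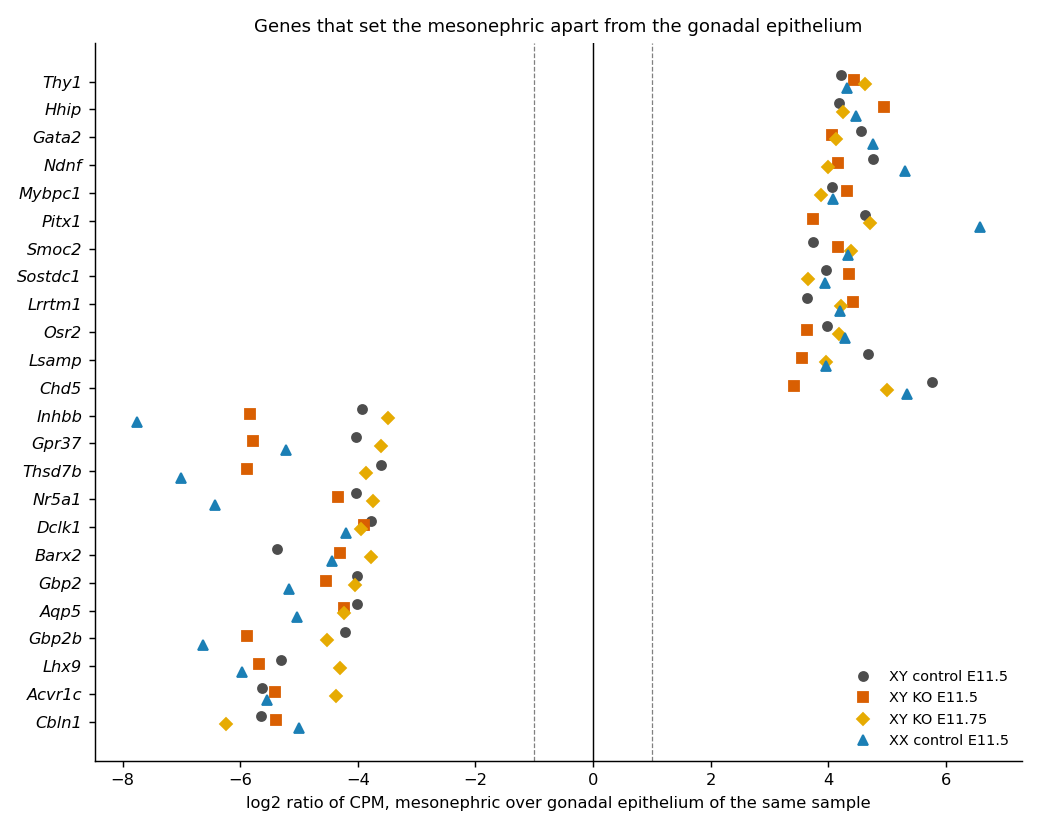
Log2 ratio of the level in the mesonephric over the gonadal epithelium of the same sample (x axis) for the 12 genes highest and the 12 lowest by the rule, 1 point per sample, with dashed lines at 2-fold. The rule took only genes of the same sign in all 4 samples, ranked by their smallest ratio, so the agreement in side was set by the choice. All points lie beyond the dashed lines.

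The counts of each list are read beside the 2.87% of all genes that were higher and the 2.81% that were lower. Against the mesenchyme of the mesonephros, 0 of 34 Hox and 0 of 7 Hedgehog genes were past 2-fold in all 4 samples. Of 16 retinoid genes 0 were higher and 1 lower, of 39 WNT genes 7 and 3, and of 13 Notch genes 2 and 3. Of all genes 2.59% were higher and 3.33% lower than in the mesenchyme. The values below are against the gonadal epithelium. In the WNT pathway, in which secreted ligands act through Frizzled receptors and R-spondins strengthen the signal, 8 of 37 genes were at least 2-fold higher in all 4 samples and 3 lower, with a median log2 ratio of 0.28 beside 0.01 over all genes. Rspo3, an R-spondin, was at 112, 102, 163 and 107 CPM against 18.2, 16.3, 20.1 and 18.5 CPM. Notum, a secreted enzyme that inactivates WNT ligands, was at 91.9, 66.8, 100 and 85.1 CPM against 4.73, 4.01, 11.9 and 1.26 CPM. Both were several-fold above the gonadal lining in every sample. Sfrp1, a secreted WNT antagonist, was at 541, 689, 477 and 384 CPM against 175, 215, 184 and 124 CPM. Lgr4, a receptor for R-spondins, went the other way, at 52.6, 41.7, 47.7 and 43.2 CPM against 209, 230, 248 and 197 CPM. Sp5, a direct transcriptional target of the pathway, was also lower, at 14.2, 6.59, 11.1 and 20.2 CPM against 38.8, 33.2, 53.2 and 71.5 CPM. The other members past 2-fold were Wnt2, Wnt9a, Dkk2, Dkk3 and Rnf43 (higher) and Fzd8 (lower).

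Hedgehog signals reach target cells as secreted ligands and are read through the receptor Ptch1. Of 7 genes of the list 2, Hhip and Gli1, were at least 2-fold higher in all 4 samples and none lower, with a median of 1.16. Hhip, a membrane protein that captures Hedgehog ligands and is itself a target, was at 19.2, 10.8, 49.6 and 11.6 CPM against 1.02, 0.301, 2.51 and 0.42 CPM in the gonadal epithelium. Gli1, a transcription factor and target, was at 32.5, 22.2, 41.4 and 19.1 CPM against 7.05, 11, 8.45 and 3.57 CPM, which is a log2 ratio of just 1.0 in the E11.5 KO and 2.20 to 2.39 elsewhere. Ptch1 was at 95, 80.4, 196 and 68.3 CPM against 31.6, 41.9, 56.0 and 21.9 CPM. The ratio of Gli1 and of Ptch1 was smallest in the E11.5 KO. In the Notch list Jag1, a ligand, was at 39.7, 32.6, 44.9 and 30.7 CPM against 4.64, 4.21, 7.54 and 2.94 CPM. Dlk1, a non-canonical ligand, was at 852, 1306, 1380 and 742 CPM against 369, 618, 535 and 243 CPM, and Hey1, a Notch target, was lower, so that 2 of 11 were higher and 1 lower (median 0.51).

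Genes of retinoic acid, which is made from vitamin A by retinol and retinal dehydrogenases and acts on Hox genes and on germ cells, included 3 of 15 that were at least 2-fold higher in all 4 samples and 1 that was lower (median 0.59). Stra6, the receptor that takes up retinol, was at 67.0, 54.6, 48.0 and 49.8 CPM against 11.1, 9.02, 10.3 and 6.94 CPM. Rdh10, which performs the first oxidation, was at 83.6, 78.1, 116 and 81.9 CPM against 18.1, 13.7, 26.7 and 14.1 CPM. The genes for uptake and for the first oxidation were thus both higher than in the gonadal lining in every sample. Aldh1a2, the main embryonic enzyme of the second step, was at 312, 277, 219 and 367 CPM against 161, 151, 180 and 236 CPM, less than 2-fold. Aldh1a1, a second enzyme of that step, was lower, at 4.39, 1.46, 4.74 and 1.07 CPM against 32.1, 11.52, 24.7 and 38.3 CPM. Rarb, a receptor for retinoic acid and its target, was at 65.1, 59.7, 53.1 and 64.0 CPM against 19.9, 23.5, 14.8 and 13.2 CPM.

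Hox genes, which mark position along the body axis, differed from the gonadal lining in both directions. Of 28 with enough UMIs, 8 were at least 2-fold higher (Hoxa3, Hoxa6, Hoxa7, Hoxa9, Hoxa10, Hoxa11, Hoxb8 and Hoxc8) and 3 lower (Hoxd8, Hoxd9 and Hoxd10) in all 4 samples, with a median log2 ratio of 0.94. Hoxa9 was at 98.8, 97.1, 130 and 137 CPM against 19.4, 16.5, 23.5 and 27.1 CPM, and Hoxa7 at 142, 204, 99.8 and 144 CPM against 34.9, 50.6, 28.8 and 43.5 CPM. Hoxd9 was at 33.7, 18.3, 36.3 and 29.2 CPM against 236, 164, 249 and 196 CPM.

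In the list of the basement membrane, the sheet on which epithelial cells rest, 4 of 18 genes were at least 2-fold higher in all 4 samples (2.87% of all genes) and none was lower (2.81%), with a median of 0.82. Col18a1, a collagen of epithelial basement membranes, was at 364, 424, 535 and 215 CPM against 116, 172, 168 and 62.4 CPM. Lama5, a laminin chain of mature epithelia, was at 90.1, 98.3, 166 and 62.1 CPM against 30.8, 38.9, 44.8 and 21.7 CPM. The XX control was lowest for both. Col4a6 and Lama4 were the other 2. Of 18 junction and polarity genes none was past 2-fold in all 4 samples (median 0.16), and the same held for 15 genes of FGF signalling (0.22), for 18 S-phase genes (−0.33) and for 16 genes of the G2 and M phases (−0.38). Of 27 genes of glycolysis and the response to low oxygen, 2 were lower (Egln3 and Ddit4, median −0.38). In the BMP, TGF-β and activin list 1 of 28 was higher, a share close to that of all genes, the receptor Bmpr1b, and 3 were lower, Bmp2, Bambi and Inhbb (0.12). Among 25 imprinted genes, which are read from a single parental copy, 4 were higher (Meg3, Dlk1, Mirg and Rtl1, all of 1 locus) and none lower, with a median of 0.48. Of 13 mesenchymal genes 5 were higher (Pdgfrb, Twist1, Prrx1, Meox1 and Osr1) and Tcf21 was lower (median 0.71). Of 9 genes of epithelial to mesenchymal transition the bHLH factors Twist1 and Twist2 were higher and Snai2, a repressor of cadherin, was lower (0.44). Of 7 Müllerian duct genes with enough UMIs Dach1 and Dach2, cofactors of homeobox factors, were higher, and Amhr2 was lower. Of 3 steroid receptor genes with enough UMIs 1 was higher and 1 was lower. The higher was Esr1, an oestrogen receptor, with log2 ratios of 1.57, 1.02, 1.81 and 1.36 over the gonadal epithelium. Against the mesenchyme of the mesonephros, 0 of 14 mesenchymal genes were higher and 6 lower (median −1.28). The transition list had 0 higher and 4 lower of 9 (−1.08), and the Müllerian list 1 and 2 of 10 (−0.65). The imprinted list had 1 and 0 of 26 (−0.12), the steroid receptors 0 and 1 of 4 (−0.23) and the basement membrane 3 and 1 of 18 (0.42). Of all genes 2.59% were higher and 3.33% lower than in the mesenchyme.

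The comparison of main interest set the mesonephric epithelium of the KO samples beside that of the XY control. The targeted locus came first. Mir17hg, the host transcript of the cluster, was at 28.2, 220, 210 and 25.4 CPM, so that both KO samples were high and both controls low. The log2 ratio over the XY control was 2.96 (2.74 to 3.20) in the E11.5 KO, 2.90 (2.66 to 3.15) in the E11.75 KO and −0.15 in the XX control. The deleted microRNAs lie within this transcript (chromosome 14, 115042879 to 115046727, mm10), and the chemistry counts transcripts from their 3′ end. Where its reads lie was not examined, so its level does not measure the deletion itself, and the cause of the higher level was not tested.

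In the E11.5 KO, 43 of 10101 genes (0.426%) were at least 2-fold higher and 61 (0.604%) at least 2-fold lower than in the XY control. In the E11.75 KO, 284 of 9249 genes (3.07%) were higher and 101 (1.09%) lower. The median log2 ratio over all genes was −0.07 and 0.13, so that ratios in the E11.75 KO are best read against 0.13. After scaling by trimmed means (TMM) this median was −0.04 and the split turned to 168 higher and 251 lower, whereas that of the E11.5 KO kept within 1.5 times. With the second library of each sample alone the E11.5 KO had 25 higher and 36 lower, and with the first alone 32 and 56. Both comparisons share the XY control, and the E11.75 KO also differs from it in stage. The genes named next, with Mir17hg, are the 10 highest and the 10 lowest in the E11.5 KO that kept their sign in the E11.75 KO. The sign is that of the unscaled ratio, and the E11.75 KO ratios of Tnc and Ptn lay below the median of 0.13.

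The lowest was H19, an imprinted long non-coding RNA of chromosome 7 (142575529 to 142578143, minus strand, mm10) that is read from the maternal copy next to the paternally read Igf2. It was at 925, 44.8, 5.05 and 1397 CPM, with both KO samples low and both controls high. The log2 ratio over the XY control was −4.37 (−4.51 to −4.22) in the E11.5 KO, −7.47 (−8.32 to −6.82) in the E11.75 KO and 0.59 in the XX control. In the gonadal epithelium it was −5.52 and −6.32, so H19 was low in that lining as well. Igf2 was at 91.5, 149, 148 and 57.6 CPM, with a log2 ratio of 0.70 (0.56 to 0.84) in the E11.5 KO and 0.69 (0.51 to 0.87) in the E11.75 KO. Of the other imprinted genes, Dlk1 had ratios of 0.62 and 0.70, and Meg3, a maternally read RNA, was at 1543, 1843, 3117 and 1130 CPM (0.26 and 1.01). Cdkn1c, a maternally read inhibitor of the cell cycle, was at 636, 819, 491 and 704 CPM. Over 23 imprinted genes H19 was the 1 past 2-fold in the E11.5 KO (0.604% of all genes were lower) and the median was 0.09. In the E11.75 KO Meg3 and Kcnq1ot1 were higher, H19 was lower, and the median was 0.25. Of all genes 3.07% were higher and 1.09% lower there. The KO embryos derive from an edited line of stem cells, and the deletion and the history of that line cannot be told apart.

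The few H19 molecules left in the E11.5 KO were not spread evenly over its cells. Cells with 5 or more H19 UMIs were 534 of 1571 in the XY control (34.0%, 31.6% to 36.4%), 24 of 1863 in the E11.5 KO (1.29%, 0.827% to 1.91%), 0 of 798 in the E11.75 KO (at most 0.461%) and 292 of 301 in the much deeper XX control (97.0%). The 24 cells of the E11.5 KO held 78.6% of its 429 H19 UMIs, up to 31 in a single cell, and came from both libraries (10 and 14 cells). Of all cells of the E11.5 KO 95.1% held none, where 79.8% would hold none at an even spread in proportion to depth. In the E11.75 KO each of the 16 H19 UMIs was in a cell of its own. The gonadal epithelium of the E11.5 KO held 4 such cells (0.222%) and the mesenchyme 11 (0.124%), and the shares of the 3 cell types ran from 0.124% to 1.29% in 1 library pair. The 24 cells had the KO level of Mir17hg, 236 CPM (168 to 322), against 220 CPM in the other mesonephric epithelial cells, and held the marker Upk3b at 260 CPM (188 to 350) against 192 CPM. Another marker, Krt18, was at 121 CPM (73.8 to 187) against 207 CPM, and Notum, a WNT inhibitor, had 1 UMI in them, 6.04 CPM (0.153 to 33.7) against 67.9 CPM. The intervals of Krt18 and Notum lay below the level of the other cells, and that of Upk3b included it. Their Igf2 was at 90.6 CPM (50.7 to 149) against 150 CPM, their Cdkn1c at 1238 CPM against 811 CPM, and their median depth 6021 UMIs against 4679 UMIs. H19 was uneven in the XY control as well: 34.3% of its cells held none, where 5.35% would hold none at such a spread. In the XX control 0% held none.

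**Figure D3:**
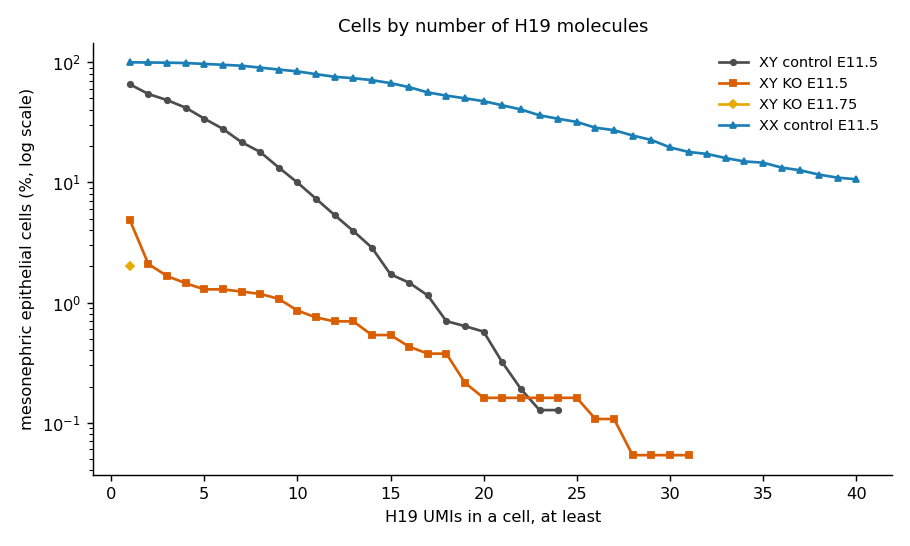
Share of mesonephric epithelial cells (y axis, percent, log axis) that held at least the number of H19 UMIs on the x axis, 1 line per sample. The line of the E11.75 KO ends at 1 UMI, that of the E11.5 KO has a long tail of 24 cells at 5 or more, and that of the XX control lies above all others.

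Other genes low in both KO samples had smaller ratios. Dppa5a, a gene of pluripotent and germ cells, was at 52.4, 14.1, 15.5 and 40.6 CPM (log2 ratio −1.89 and −1.75). The summed level of the 5 germ cell markers was also highest in the XY control, at 25.9, 8.47, 17.7 and 13.8 CPM here and at 27.5, 11.04, 17.7 and 13.6 CPM in the mesenchyme, but low in the XX control too, and its part in the result was not tested. Lor, which codes for the skin envelope protein loricrin, was at 30.4, 8.26, 5.37 and 30.9 CPM (−1.88 and −2.46), and B9d2, a protein of the ciliary base, at 22.5, 8.36, 6.00 and 22.3 CPM (−1.42 and −1.87). For these 3 genes both KO samples lay below both controls, and for the XY control this side was set by the rule. Rgs5, a regulator of G-protein signalling found in pericytes, was at 60.4, 21.7, 31.3 and 44.9 CPM (−1.47 and −0.94). Dock10, an exchange factor for small GTPases, was at 22.6, 8.57, 9.48 and 15 CPM (−1.40 and −1.24), and Bdnf, a neurotrophin, at 27.0, 10.2, 12 and 25.1 CPM (−1.40 and −1.16). The KO samples were again below both controls in each, for the XY control by the rule. Khdrbs2, an RNA-binding protein, was at 24.1, 5.44, 12.3 and 17.4 CPM (−2.14 and −0.95). Hoxa10 and Kctd14 were low in the E11.5 KO and not in the E11.75 KO. Hoxa10, a posterior Hox factor, was at 57.6, 18.6, 49.0 and 79.3 CPM (−1.63 and −0.23), and Kctd14 was at 42.5, 14.4, 40.7 and 15 CPM, with the XX control as low as the E11.5 KO.

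Among genes higher in the KO samples, Nfix, a nuclear factor I transcription factor, was at 4.88, 19.1, 25.6 and 2.79 CPM. Its log2 ratio was 1.95 (1.41 to 2.58) in the E11.5 KO and 2.37 (1.77 to 3.05) in the E11.75 KO. Adamts19, a secreted metalloprotease, was at 8.79, 27.2, 25.6 and 7.52 CPM (1.62 and 1.54). Emp1, a membrane protein of epithelia, was at 14.8, 36.7, 47.1 and 7.30 CPM (1.30 and 1.67), and Jph4, a junctophilin, at 9.44, 21.5, 40.1 and 6.23 CPM (1.18 and 2.08). In all 4 genes both KO samples were above both controls, and for the XY control this side was set by the rule. A second set was past 2-fold in the E11.5 KO only. Tnc, the matrix protein tenascin C, was at 3.42, 30.9, 3.47 and 2.79 CPM, a log2 ratio of 3.15 (2.54 to 3.89) and of 0.05 in the E11.75 KO. Ptn, the growth factor pleiotrophin, was at 582, 1541, 622 and 575 CPM (1.40, 1.35 to 1.46, and 0.10). Adamts9, a protease of the matrix, was at 12.9, 50.8, 15.5 and 9.45 CPM (1.97 and 0.27), and Col12a1, a fibril-associated collagen, at 15.1, 53.7, 25 and 16.3 CPM (1.82 and 0.72).

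**Figure D4:**
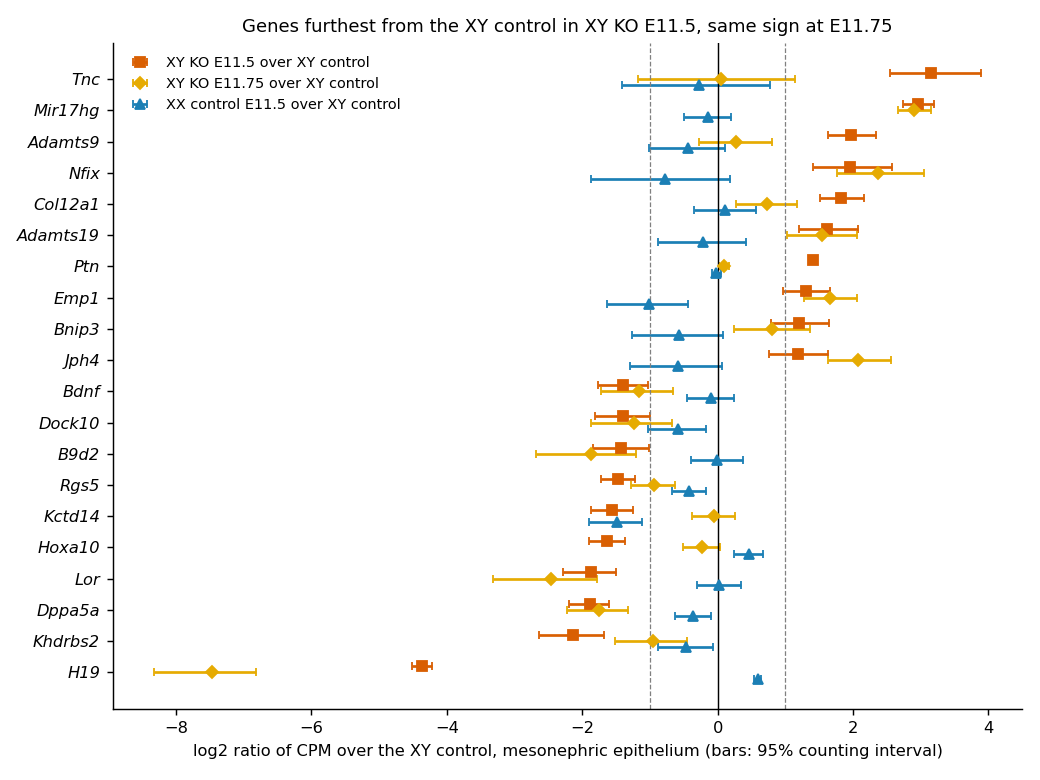
Log2 ratio over the XY control of the E11.5 KO, the E11.75 KO and the XX control in the mesonephric epithelium for the genes named by the rule, with exact 95% counting intervals. The rule took only genes of the same sign in both KO samples. Nfix, Adamts19, Emp1 and Jph4 are past 2-fold in both. Tnc, Ptn and Adamts9 are far above 0 in the E11.5 KO and near 0 in the E11.75 KO.

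Part of the genes high in the E11.5 KO alone sat in the same cells. Gdf10, a BMP-like growth factor, was at 6.51, 45.0, 3.47 and 1.5 CPM and was seen in 0.675%, 6.89%, 0.797% and 1.33% of cells thinned to 2000 UMIs. The share of the XX control was 4 of 301 cells, and 1 of 301 (0.332%) when thinned to 3000 UMIs. Of the 207 cells of the E11.5 KO with a Gdf10 UMI (median depth 5018 UMIs), 45.9% also held Tnc (39.0% to 52.9%), against 4.53% of the other cells (median depth 4655 UMIs). Upk3b went the other way, in 17.9% against 52.4% of cells, as did Krt18, in 27.1% against 55.1%. Both epithelial markers thus had lower shares in the Gdf10 cells. Epha4, an ephrin receptor chosen after its values were seen, was in 62.8% against 15.2% of cells. In the XY control, where 30 cells held a Gdf10 UMI, the shares had the same directions, with Tnc in 10% (2.11% to 26.5%) against 1.04%, Epha4 in 23.3% against 6.1%, Upk3b in 30% against 44.6% and Krt18 in 23.3% against 48.3%. Of the 11 such cells of the E11.75 KO and the 6 of the XX control none held Tnc, which allows shares of up to 28.5% and 45.9%. Upk3b was in 72.7% against 62.9% in the E11.75 KO and in 33.3% against 67.8% in the XX control. Krt18 was in 54.5% against 50.3% and in 50% against 87.1%. Epha4 was in 9.09% against 7.37% and in 66.7% against 16.3%. For the 11 cells of the E11.75 KO the intervals were 39.0% to 94.0% for Upk3b and 23.4% to 83.3% for Krt18. They include shares well below and well above those of the other cells, so no direction can be read there. Epha4 also differed at least 2-fold between the 2 libraries of the XX control. Whether these cells are of another type that shares the name was not tested.

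Cells with Pitx1 formed another small group. Cells with a UMI of Pitx1 were 63, 46, 16 and 43, and Hoxa10 was seen in 69.8%, 47.8%, 62.5% and 93% of them, against 12.1%, 5.34%, 13.2% and 20.5% of the others. Irx3, an Iroquois homeobox factor chosen after its values were seen, was in 25.4%, 30.4%, 31.3% and 65.1% of them against 1.92%, 4.35%, 1.53% and 3.88%. Upk3b was seen in 14.3%, 13%, 25% and 39.5% of them against 45.6%, 49.5%, 63.8% and 71.7%. The pattern had the same direction in all 4 samples. Pitx1 was also 1 of the 8 genes that differed at least 2-fold between the 2 libraries of the XX control.

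By pathway, genes of glycolysis and the response to low oxygen had the highest E11.5 KO median of the signalling, matrix and metabolic lists. It was 0.58 over 25 genes beside −0.07 over all genes. In the list 1 gene was at least 2-fold higher, beside 0.426% of all genes. That gene was Bnip3, a mitochondrial target of hypoxia-inducible factors, at 9.60, 22.2, 16.7 and 6.45 CPM (1.20 and 0.80). Ldha, which turns pyruvate to lactate, was at 198, 375, 224 and 157 CPM, and Pgk1, a glycolytic kinase, at 251, 380, 206 and 237 CPM. The E11.5 KO was the highest sample for all 3. The median of the list in the E11.75 KO was 0.23 over 24 genes. The 72 genes of oxidative phosphorylation had a median of −0.59 in the E11.75 KO and of −0.03 over 73 genes in the E11.5 KO. In the E11.75 KO 1 of them was lower (1.09% of all genes) and none was higher (3.07%). Immediate early genes, which respond to handling, had medians of −0.76 and 0.13 over 5 genes. Egr1 was at 27.2, 5.96, 57.5 and 74.8 CPM and Fos at 11.72, 6.90, 26.5 and 18.7 CPM, with the E11.5 KO lowest for both, and the part of dissection in this order was not tested.

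In the E11.75 KO 3.07% of all genes were higher and 1.09% lower than in the XY control before TMM scaling. Several ligands and matrix genes were above the XY control. Fgf9, a growth factor of the coelomic lining that promotes testis development, was at 15.9, 14.1, 70.4 and 12 CPM, a log2 ratio of 2.14 (1.79 to 2.50), while the gonadal epithelium was at 12, 9.82, 14.6 and 8.20 CPM. Wnt5a, a WNT ligand that acts on cell movement, was at 52.7, 74.1, 209 and 35.9 CPM (1.99). For both, the E11.75 KO was the highest sample. Frem2, a basement membrane protein, was at 33.5, 22.4, 187 and 17.4 CPM (2.48), Gas6, the ligand of TAM receptors, at 20.2, 19.7, 118 and 10.5 CPM (2.54), and Muc16, the mesothelial mucin, at 39.9, 28.5, 155 and 40.0 CPM (1.96). Esr1 was at 13.5, 10.0, 50.9 and 7.73 CPM (1.91). By list, 3 of 7 Hedgehog genes were at least 2-fold higher (median 0.73), including Ptch1 (1.05) and Hhip (1.37), as were 2 of 16 basement membrane genes (0.76), 1 of 14 mesothelial genes (0.71), 2 of 29 WNT genes (0.39) and 4 of 12 gonadal ridge genes (Lhx9, Zfpm2, Insr and Igf1r, median 0.39). Higher too were 3 of 20 BMP and TGF-β genes (0.32), 1 of 9 FGF genes (0.09) and 1 of 13 junction and polarity genes (0.40). Of 7 Notch genes none was past 2-fold (0.31), and of 9 genes of epithelial-to-mesenchymal transition none was higher and 1 lower (0.40). The 11 retinoid genes had a median of −0.29, with 2 lower, beside 1.09% of all genes. Crabp1, which binds retinoic acid in the cell, was at 75.3, 157, 30.3 and 117 CPM, so that it was higher than in the XY control in the E11.5 KO (1.06) and lower in the E11.75 KO (−1.31). In the E11.5 KO medians of the Hedgehog, basement membrane, mesothelial, WNT, gonadal ridge and retinoid lists were −0.03, 0.12, −0.09, −0.10, −0.24 and −0.11. Of their genes Sp5 and Rnf43 of 31 WNT genes were lower (0.604% of all genes). Crabp1 of 12 retinoid genes was higher (0.426% of all genes). TMM scaling lowers every ratio of the E11.75 KO alike, and Meg3, Kcnq1ot1, Ptch1, Zfpm2, Insr and Igf1r, whose ratios lay close to the 2-fold limit, then miss it. S-phase and G2 and M genes had medians of 0.04 and 0.10 in the E11.5 KO and of −0.30 and −0.27 in the E11.75 KO. Of 25 Hox genes 1 was higher and 2 were lower in the E11.5 KO (median −0.02), beside 0.426% and 0.604% of all genes. Of 22 Hox genes none was past 2-fold in the E11.75 KO (0.24). The 77 ribosomal protein genes had medians of 0.11 and −0.19 with none past 2-fold, and the 11 mesenchymal genes 0.31 and 0.37. Of the erythroid genes 4 of 6 were lower in the E11.5 KO (median −1.09), beside 0.604% of all genes. In the E11.75 KO 2 were higher and 1 lower (−0.11), beside 3.07% and 1.09% of all genes. The limits on beta globin differed between these samples.

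Set against each other, the E11.75 KO and the E11.5 KO differed at least 2-fold in 526 genes that were higher (5.39%) and 134 that were lower (1.37%) of 9764, with a median of 0.21, and after TMM scaling in 226 and 458 genes with a median of −0.07. The rule named Egr1, Frem2 and Plxna4 among the highest, with Plxna4, a semaphorin receptor, at 9.11, 11.71, 76.1 and 2.15 CPM. Lowest was Gdf10 with a log2 ratio of −3.63, followed by H19 (−3.11), Tnc (−3.09) and Acta2 (−2.51), a smooth muscle actin at 20.7, 36.9, 6.32 and 13.1 CPM. The 2 samples differ in stage, run number and depth together.

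Sites complementary to the seeds were looked for as exact 8mers (GCACTTTA for the seed of miR-17, TTTGCACA for that of miR-19 and GTGCAATA for that of miR-92), on the transcribed strand, in the longest 3′ untranslated region of each gene in the GENCODE vM21 annotation. Genes counted as without a site lack these 3 and may hold one for miR-18a. Of 17287 measured genes with such a region, 1915 (11.1%) held at least 1 site, with shares of 3.94% for miR-17, 5.52% for miR-19 and 2.49% for miR-92. In the E11.5 KO, 8 of 1292 genes with such a site were at least 2-fold higher (0.619%), beside 34 of 8544 genes with a 3′ region and no site (0.398%), and the medians were −0.06 and −0.07. In the E11.75 KO, 61 of 1197 were higher (5.1%) beside 214 of 7842 (2.73%), and the medians 0.34 and 0.10. Between the KO samples, which both lack the cluster, 97 of 1264 were higher in the E11.75 KO (7.67%) beside 410 of 8268 (4.96%). The medians were 0.39 and 0.17. These samples differ in stage, and the part of the cluster in any of these shifts was not tested. In the XX control, which has the cluster, the medians were −0.20 and −0.10. The untranslated regions of genes with a site were longer, with a median of 2582 bases against 1090 in the first of these comparisons, and the part of length was not tested. Of the list of 26 known targets 1 of 24 was higher in the E11.5 KO (median −0.10) and 1 of 23 in the E11.75 KO (0.34). Over all genes the shares higher were 0.426% and 3.07%.

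None of the 4 markers held such an 8mer. Of the genes named as highest and as lowest in the E11.5 KO, 9 each had an annotated 3′ region. None of the 9 highest held a site, and 1 of the 9 lowest did, Dock10. Of the 5 genes highest in the E11.75 KO over the E11.5 KO 1 did, Plxna4 (miR-19). Of the 12 genes highest over the gonadal epithelium 4 did (Hhip, Gata2, Mybpc1 and Pitx1), and of the 12 lowest 1 (Gpr37). Over all measured genes with such a region the share was 11.1%. The sites in 4 genes discussed here are shown with their surroundings on the transcribed strand (mm10, 8mer in capitals), at chr8:79970593-79970600 for Hhip, chr6:88206782-88206789 for Gata2, chr1:80501543-80501550 for Dock10 and chr13:97251267-97251274 for Enc1.
Hhip, miR-19 site: gcttgcataatTTTGCACAatttagattca
Gata2, miR-92 site: gagtcaaccaaGTGCAATAtcggtgtccag
Dock10, miR-19 site: cagcctctgaaTTTGCACAttttctatgat
Enc1, miR-19 site: tggtcgtatgtTTTGCACAttttgtagttg
Dock10 was lower in both KO samples, and Gata2 was at 275 CPM in the XY control and at 197 and 428 CPM in the KO samples.

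Whether the KO ratios of the mesonephric lining were unlike those of the gonadal lining was asked by subtracting the log2 ratios. Of 10299 genes, 22 (0.214%) had a ratio at least 1 higher in the mesonephric epithelium in both KO samples and 10 (0.0971%) at least 1 lower. Sema3d, a guidance cue, had ratios of 0.60 and 2.13 in the mesonephric and of −1.27 and −0.03 in the gonadal epithelium, and Col16a1, a fibril-associated collagen, of 1.10 and 2.53 against −0.10 and 1.05. Enc1, an actin-binding protein, had −0.18 and 0.72 against −1.47 and −1.26, Olfml3, a matrix protein, 0.06 and 0.17 against −1.19 and −1.0, and Itga9, an integrin chain, 0.91 and 0.43 against −1.30 and −0.71. In all of these but Col16a1 the gonadal ratio was below 0 in both KO samples. Lower in the mesonephric epithelium were the ratios of Mt1, Prrx1, Lrrn1, Sdk1 and Dpf3. Prrx1, a homeobox factor of mesenchyme, had −1.17 and −0.81 against −0.05 and 0.49. The differences were not tested, since each rests on 1 sample per group.

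**Figure D5:**
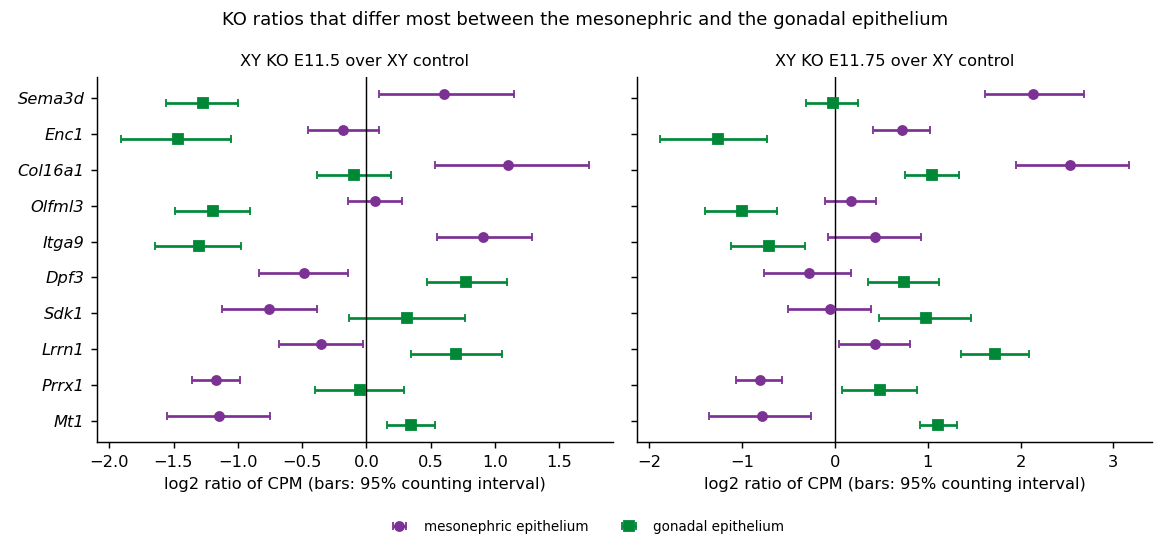
Log2 ratio of each KO sample over the XY control (x axis) for the 10 genes whose ratio differed most between the linings, with the mesonephric epithelium as circles, the gonadal epithelium as squares and exact 95% counting intervals as bars. The E11.5 KO is on the left and the E11.75 KO on the right, and Sema3d, Olfml3, Itga9, Mt1, Sdk1 and Dpf3 lie on opposite sides of 0 in both. Some of these points are close to 0, as for Sema3d in the gonadal epithelium of the E11.75 KO and Olfml3 in the mesonephric epithelium.

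Between the sexes, 14 of 9316 genes (0.15%) were at least 2-fold higher in the XX than in the XY control and 60 (0.644%) lower, with a median of −0.11. TMM scaling left 37 lower. Xist, the RNA that silences an X chromosome, was at 0.325, 0.314, 0.632 and 864 CPM and separated the sexes as labelled. Pitx1 and Egr1 were higher (1.37 and 1.46), as was Hist1h1e, a linker histone at 22.9, 26.7, 28.1 and 58.4 CPM. Pitx1 also differed at least 2-fold between the 2 libraries of the XX control. Egr1 is an immediate early gene, and the part of dissection in its level was not tested. Tpm3-rs7, a tropomyosin-related sequence, was at 58.9, 55.1, 34.4 and 2.36 CPM, and Mid1, a ubiquitin ligase, at 159, 162, 201 and 25.6 CPM (−4.58 and −2.63). For both the XX control was far below the 3 XY samples, which all derive from G4 cells, and sex and origin cannot be told apart. Slc38a4, an imprinted amino acid transporter, was at 169, 193, 190 and 57.2 CPM, and Agtr2, an angiotensin receptor, at 27.7, 16.2, 58.8 and 11.4 CPM. The 4 markers of the cell type were within 2-fold between the controls.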

How the data were processed

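Pooled gonads with mesonephros were dissociated, fixed in methanol and run on the 10x 3′ v3.1 chemistry. The authors aligned reads with Cell Ranger 6.1.1 (mm10), removed doublets with DoubletFinder, filtered cells by mitochondrial and beta globin percent and upper limits on UMIs and genes (the XX control by clusters only), and integrated samples with Seurat to name cells. They dropped 1 cluster found in XY controls. The deposited counts are raw UMI counts of 21495 genes, and the percent values in the deposited annotation are mitochondrial, globin and ribosomal UMIs of each cell. Depth per sample stands in the report. The study's methods give the same cell totals with the KO stages swapped, and the sample names of the cells were followed.

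For each sample and cell type the UMIs of a gene were added up and scaled to CPM by the total. A log2 ratio used a prior count of 0.5, and a gene was past the fold at a log2 ratio of 1 or more with at least 100 UMIs over both sums. With 1 sample per group there was no test. Intervals were Clopper-Pearson for shares, Poisson for levels and binomial for ratios. Ratios were checked on simulated data. Python 3.11.15, numpy 2.4.6, scipy 1.17.1, pandas 2.3.3 and edgeR 4.0.16 (TMM factors only, R 4.3.3) were used. The members and the 35 gene lists were chosen with earlier results of these data known. Named genes were the 4 markers and list genes with the largest ratios or that define the pathway. Against the gonadal epithelium they were the 12 highest and 12 lowest by the smallest ratio of the 4 samples. These had the same sign in all 4 and at least 400 UMIs. Further named genes were the 10 highest and lowest in the E11.5 KO whose sign was kept in the E11.75 KO. These and the 5 highest and lowest in the other comparisons had at least 200 UMIs. Some genes that the rule names are not reported here. Alternatives were TMM, other totals, means over cells, other priors and minimums, deeper cells and single runs.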

Additional observations from a re-analysis of the deposited data

Results flagged for a closer look

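Mt1, a metallothionein that binds metals, had KO ratios on opposite sides of 0 in the 2 linings. In the mesonephric epithelium it was at 20.8, 9.41, 12 and 8.59 CPM in the XY control, the E11.5 KO, the E11.75 KO and the XX control, and in the gonadal epithelium at 40.9, 52.0, 88.4 and 32.4 CPM. The log2 ratio over the XY control was −1.14 in the E11.5 KO and −0.78 in the E11.75 KO in the mesonephric epithelium, and 0.35 and 1.11 in the gonadal epithelium. The difference was not tested, since there was 1 sample per group. Of 8814 genes with at least 200 UMIs in both linings, 5 had opposite signs in both KO samples with counting intervals clear of 0, and Mt1 was the 1 among them whose ratios also lay at least 1 apart. No group held the 4 or more samples that a search for outlying samples needs.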

How the results depend on the processing

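Of 158 alternative values for 21 main results, 113 kept within their limit and 45 moved, and of 1208 further values 1094 kept and 114 moved. Among the further values all 32 marker shares moved when the thinning was changed. With the threshold for H19, 4 of 8 shares of cells high in it moved. The rest were 48 of 840 ratios of named genes, 25 of 288 list medians and 5 of 40 medians of all genes. Counts of genes higher and lower are given as pairs. TMM scaling gave 168 and 251 for the E11.75 KO (from 284 and 101), 37 lower for the XX control, and 226 and 458 between the KO samples (from 526 and 134), so that the excess of higher genes turned into one of lower genes in both comparisons of the E11.75 KO. A prior count of 5 gave 37 lower for the XX control and 6 lower for the difference of KO ratios. A minimum of 50 UMIs gave 68 and 135 for the E11.5 KO, 446 higher for the E11.75 KO, 31 and 134 for the XX control, and 44 and 32 for the difference. A minimum of 500 UMIs gave 12 and 15, 51 and 41, 5 and 9, 132 and 71 between the KO samples, 183 and 203 against the gonadal epithelium, and 4 and 0 for the difference. With no minimum the pairs were 746 and 2272, 2120 and 1286, 1480 and 2293, and 3217 and 878, counts set mostly by genes of few UMIs. It was not run for the difference. Run 2 alone gave 25 and 36 for the E11.5 KO. Shares moved to 10.9%, 16.0%, 15.4% and 12.7% of the mesonephric cells, to 41.5%, 50.8%, 46.8% and 56.7% of both epithelia, and for the XY control to 6.35% among cells of 3000 UMIs or more. Beyond the construction of each alternative, the cause was not tested. Leaving out the XX control or the E11.75 KO, chosen after seeing the data, kept the counts against the gonadal epithelium within 1.5 times. No paired analysis was possible because each group is 1 sample, and the comparison with the gonadal epithelium, which is paired within the samples, came with no test since both classes were named from these values. Genes at few CPM are limited by depth, most of all in the E11.75 KO.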
